A study of Rattus norvegicus with 2 samples.

Results

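The matrix metalloproteinases are secreted or membrane-bound zinc proteases that cut the proteins of the extracellular matrix. They were examined here in bladder carcinomas of rats given dimethylarsinic acid (DMA), a methylated arsenic metabolite. The family was described through 10 genes, of 22093 genes that had a probe set naming 1 gene. They were chosen by their gene symbols, with the log2 differences between these same arrays already known. Every signal and difference of the 10 genes below is therefore a description and carries no test.

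Male F344 rats, an inbred strain, received 0 or 200 ppm DMA in drinking water for 2 years, starting at 10 weeks of age. They were 114 weeks old at the end of the 2 years. Per the methods, rats that became moribund were killed earlier, and the age of each pooled animal is not given. One pool of RNA from 5 bladders of rats without DMA, labelled as epithelium, was run on the Control array, and 1 pool from 6 carcinomas on the DMA-tumor array. These numbers follow the series design; the methods give a smaller number of tumors and call the controls bladder tissue. The tumors were taken to be urothelial carcinomas by their size, without histology. Each group had 1 array, so the spread between animals was not measured and no p-value can be given.

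Across both arrays 68842 probe sets were read. A signal of 100 or more was recorded by 33.0% of them in Control and 36.0% in DMA-tumor. The uroplakin genes Upk1a, Upk1b, Upk2 and Upk3a, which mark urothelium, gave signals from 273153 to 523348 in Control and from 73595 to 161397 in DMA-tumor. Of 7 urothelial markers with a probe set 0 had a positive log2 difference, 2 were lower by both criteria used below and 6 were lower by the ratio alone, with a median log2 difference of -1.56. The 2 were Upk2 (523348 and 107621) and the umbrella cell keratin gene Krt20 (5761 and 77.9). No probe set named the basal keratin gene Krt5 alone. The 5 smooth muscle markers Des, Myh11, Cnn1, Actg2 and Tagln were also all lower by both criteria. They had signals from 2228 to 5782 in Control, although it was labelled as epithelium, and from 54.6 to 386 in DMA-tumor.

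Metalloproteinases are made as inactive proenzymes. The propeptide keeps the catalytic zinc blocked until another protease removes it, and the active enzymes are held in check by the tissue inhibitors of metalloproteinases (TIMPs). Collagenases open the triple helix of fibrillar collagen, gelatinases cut denatured collagen and type IV collagen, and stromelysins act on proteoglycans, laminin and fibronectin and can activate other proenzymes. In normal adult tissue most of these genes are transcribed weakly, and several are induced in wounds and tumors through the transcription factor AP-1.

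Of the 10 genes, Mmp13, Mmp12, Mmp3, Mmp10 and Mmp7 lie in 1 gene cluster on rat chromosome 8. Their promoters are shown because the letters bound by AP-1 and a TATA box stood close together in each of the 5, although their signals differed widely. The stretches are the 110 bases before the annotated transcription start on the plus strand of GRCr8 (RefSeq), read 5′ to 3′, with the AP-1 letters TGAGTCA or their reverse complement TGACTCA, and TATAAA, in capitals.

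Mmp13, chr8:12782719-12782828: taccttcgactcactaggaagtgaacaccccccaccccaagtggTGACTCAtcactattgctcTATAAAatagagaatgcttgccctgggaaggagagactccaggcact
Mmp12, chr8:12866542-12866651: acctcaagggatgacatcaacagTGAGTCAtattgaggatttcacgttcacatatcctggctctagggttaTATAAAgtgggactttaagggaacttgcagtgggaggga
Mmp3, chr8:12925171-12925280: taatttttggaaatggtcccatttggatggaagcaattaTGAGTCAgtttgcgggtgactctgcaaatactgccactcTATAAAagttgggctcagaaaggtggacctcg
Mmp10, chr8:12974597-12974706: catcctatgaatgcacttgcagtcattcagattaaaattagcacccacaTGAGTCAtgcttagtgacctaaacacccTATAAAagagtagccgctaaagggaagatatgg
Mmp7, chr8:13132933-13133042: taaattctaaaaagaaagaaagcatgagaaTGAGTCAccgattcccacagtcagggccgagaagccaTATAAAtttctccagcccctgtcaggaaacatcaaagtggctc

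The AP-1 letters began 66 bases before the start of Mmp13, 87 before Mmp12, 71 before Mmp3, 61 before Mmp10 and 80 before Mmp7. They were separated from the TATA letters by 12 bases in Mmp13, the shortest distance of the 5, and by 41 in Mmp12, the longest. Among all 33469 promoter windows of 300 bases (250 before and 50 after the start), 4.63% held the AP-1 letters on either strand, 8.80% held TATAAA on the strand of the gene and 0.514% held both. Of the other 11 family genes with a promoter sequence, 1 held the AP-1 letters, namely Mmp1, which also held TATAAA. The promoter of Mmp11, on chromosome 20, held neither and instead had the GC box letters GGGCGG 4 times, letters that with their reverse complement CCGCCC stood in 33.1% of all windows. The motifs did not overlap. Over the 110 bases before the start alone, 1.72% of all promoters held the AP-1 letters and 0.105% held both these and TATAAA. No share was computed for the distance between the motifs. No promoter sequence was shown for Mmp2, Mmp9, Mmp14 and Mmp19. A match of letters describes the window and is not a measurement of binding.

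Mmp13 encodes collagenase-3, the interstitial collagenase that rodents use most. Its signal was 82.4 in Control and 70819 in DMA-tumor. The Control value lay below 100, the level under which the methods removed values. Such values were kept here, and with this one raised to 100 the gene was at least 708-fold higher in the tumors. Its log2 difference of 9.75 (DMA-tumor minus Control, as throughout) had rank 2 from the top among the 12074 genes that reached a signal of 100 on either array. In pooled tissue RNA, the number of cells of a type and the RNA per cell cannot be told apart, here and for each gene below.

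The stromelysins were unlike each other. Mmp3, stromelysin-1, which cuts proteoglycans and activates procollagenases, had signals of 139 in Control and 11625 in DMA-tumor. It was 83.9-fold higher, with a log2 difference of 6.39 and rank 11. Mmp10, stromelysin-2, a close relative of Mmp3 in sequence that is induced in keratinocytes of wounds, had signals of 37.8 and 65.8, both under 100, so no fold is given. Its log2 difference of 0.80 lay just above the central 95% range of the 10019 genes that were under 100 on both arrays, which ran from -0.71 to 0.62.

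Mmp12, macrophage elastase, which degrades elastin and is made mainly by macrophages, had signals of 151 and 850. Both were above 100, and the gene was 5.65-fold higher in DMA-tumor (log2 difference 2.50, rank 195). Most macrophage markers had the opposite sign. Of 8 markers 0 met the call criteria described below, 2 had a positive difference, and their summed signal was 2375 in Control and 1638 in DMA-tumor. Csf1r, the receptor for macrophage growth factor, had signals of 714 and 235, and Cd68, a lysosomal protein, had 419 and 496. Cd14, the other marker with a positive difference, had 178 and 365 (2.04-fold higher). Aif1 and Msr1, both with a negative difference, were under 100 on both arrays. The part of macrophage content in the Mmp12 value was not tested.

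Mmp7, matrilysin, the short family member that lacks the hemopexin domain and is made by glandular epithelia, had signals of 51.8 and 105. Its log2 difference was 1.02, but only the tumor value exceeded 100, and the bound was 1.05-fold higher. The difference thus rested on values near or under 100.

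Of the gelatinases only Mmp2 met the call criteria. Mmp2, gelatinase A, a product of fibroblasts and other stromal cells, had signals of 3181 in Control and 74.4 in DMA-tumor. It was at least 31.8-fold lower, with a log2 difference of -5.42 and rank 17 from the bottom. Mmp9, gelatinase B, a product of neutrophils, macrophages and some epithelia, had signals of 30.2 and 41.8, both under 100, with a log2 difference of 0.47, inside the range of other low genes. All 7 neutrophil markers, among them Mpo and Elane of neutrophil granules, were also under 100 on both arrays.

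Fibroblast markers moved with Mmp2. Of 8 markers 7 (Dcn, Lum, Pdgfra, Thy1, Col1a1, Col1a2 and Col3a1) were lower by the call criteria, and Pdgfrb was at 216 and 172. Their signals ranged from 216 to 57824 in Control and from 74.5 to 381 in DMA-tumor, and their sum was 148230 in Control and 1787 in DMA-tumor. The receptor gene Pdgfra had signals of 3789 and 74.5, a log2 difference of -5.67 beside -5.42 for Mmp2. The part of stromal content in the Mmp2 value was not tested.

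Mmp14, the membrane-type enzyme that activates the Mmp2 proenzyme at the cell surface together with Timp2, had signals of 1840 and 2055. This was a 1.12-fold difference (log2 0.16), whose sign turned negative, at -0.021, after quantile normalization. Mmp14 was recorded at a similar signal on both arrays while the gene of its substrate Mmp2 was at a low signal in DMA-tumor. Timp2 had signals of 7012 and 6516.

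Mmp11, stromelysin-3, which is activated inside the cell by furin and is typical of stroma around carcinomas, had signals of 195 and 65.2 (log2 difference -1.58), at least 1.95-fold lower. These values came from a probe set named as unmapped. A second probe set of Mmp11, named for chromosome 20, gave 84.3 and 60.9 (log2 -0.47), so the probe sets agreed in sign and not in size. The second was under 100 on both arrays, so the count of Mmp11 by the ratio alone, below, rests on the unmapped one. Mmp19, a widely expressed member that cuts basement membrane proteins, had signals of 779 and 456 and was 1.71-fold lower (log2 -0.77).

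**Figure D1:**
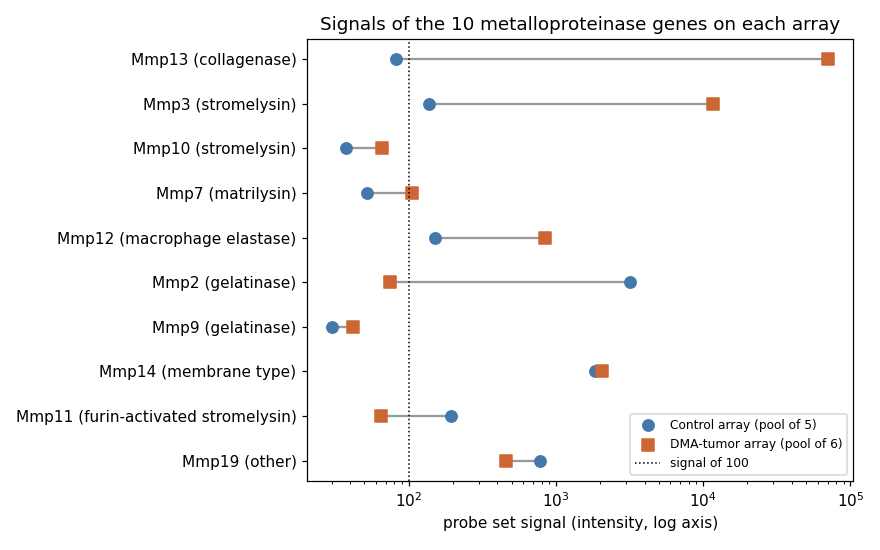
Probe set signal (horizontal log axis, intensity) of the 10 metalloproteinase genes on the Control array (circles) and the DMA-tumor array (squares), 1 array per group; the dotted line marks a signal of 100. Mmp13 and Mmp3 lie far to the right in DMA-tumor (70819 and 11625), Mmp2 lies far to the left (74.4), and Mmp9 and Mmp10 stay left of the line on both arrays.

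The genes were called with the cutoffs in the methods, a 2-fold ratio together with a Z-score beyond 2 in the same direction. Unlike in the methods, values under 100 were kept, and the calls of Mmp13 and Mmp2 each rest on such a value. The methods do not give the formula of the Z-score. It was taken here as the difference minus the mean of the 12074 genes (-0.069), divided by their standard deviation (1.02). The smallest called change was thus 3.93-fold for higher genes and 4.32-fold for lower genes. The paper reports more genes as downregulated than were called lower here. By these criteria 3 of the 10 genes were higher, Mmp13, Mmp3 and Mmp12, where 2.53% of all 12074 genes were called higher. One gene of the 10, Mmp2, was called lower (1 of 10), where 2.37% of all genes were. Mmp9 and Mmp10 are not among the 12074 genes and could not be called. Since the genes were chosen with these values known, nothing is read from these shares.

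By the 2-fold ratio alone, 4 of the 10 were higher, with Mmp7 added, where 8.87% of all genes were. Likewise 2 of the 10 were lower, with Mmp11 added, where 10.5% of all genes were. Mmp7 and Mmp11 no longer reached 2-fold with low signals raised to 100. The remaining 4 genes, Mmp9, Mmp10, Mmp14 and Mmp19, met neither set of criteria. Of the 10 genes 8 had a signal of 100 on 1 or both arrays, and only these could be called.

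The 10 differences spanned 15.2 log2 units, from -5.42 to 9.75, with 7 positive and 3 negative. Their median was 0.63 over all 10 genes, compared with -0.067 over all 22093 genes, and fell to 0.037 with signals under 100 raised to 100. The mean of 1.33 was far above the median because Mmp13 and Mmp3 stood well apart from the rest.

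**Figure D2:**
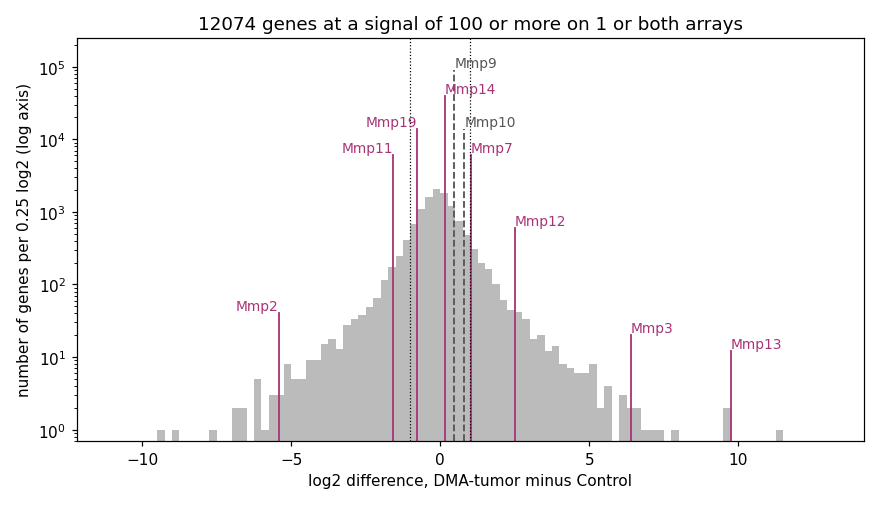
Histogram of log2 differences (horizontal axis, DMA-tumor minus Control) of the 12074 genes that reached a signal of 100 on either array (vertical log axis, genes per bin), with the 10 metalloproteinase genes marked by lines whose heights carry no value. Dotted lines mark a 2-fold ratio and dashed lines the genes under 100 on both arrays (Mmp9 and Mmp10); Mmp13 at 9.75 and Mmp3 at 6.39 lie in the far upper tail and Mmp2 at -5.42 in the lower one.

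The 3 higher calls all fell in the gene cluster on chromosome 8, which holds 5 of the 10 chosen genes. These were chosen with their values known, so nothing is read from the position of the calls. The cluster holds 10 metalloproteinase genes in the order Mmp13, Mmp12, Mmp1b, Mmp3, Mmp1, Mmp10, Mmp8, Mmp27, Mmp20 and Mmp7 (RefSeq, GRCr8). Of these, 3 were called higher and 0 lower, where 2.53% and 2.37% of all 12074 genes were. Another 6 were under 100 on both arrays. The 5 cluster genes outside the chosen group (Mmp1b, Mmp1, Mmp8, Mmp27 and Mmp20) had signals from 21.6 to 44.8 and log2 differences from -0.67 to 0.32.

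The high genes were interleaved with low ones along the cluster. Mmp1b, whose signals were 27.8 and 26.5, lies between Mmp12 and Mmp3, and Mmp1, with 34.3 and 21.6, lies between Mmp3 and Mmp10. The AP-1 and TATA letters were present in the promoters of the 3 genes called higher, in that of Mmp7, and in those of Mmp10 and Mmp1, which were under 100 on both arrays. The flanking genes Dcun1d5 (signals of 1182 and 1909) and Tmem123 (4388 and 5299) had log2 differences of 0.69 and 0.27. None of the 5 chosen genes outside the cluster was called higher.

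**Figure D3:**
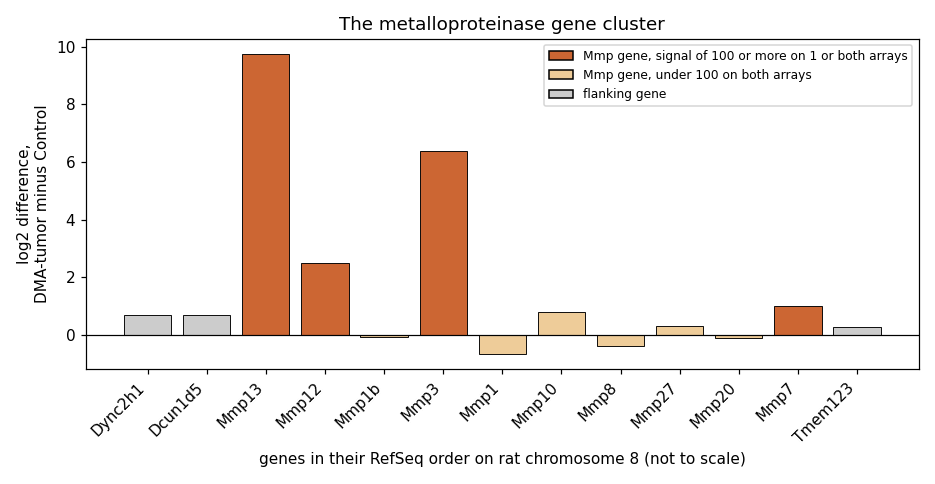
Log2 difference (vertical axis, DMA-tumor minus Control) of the 10 metalloproteinase genes of the chromosome 8 cluster and 3 flanking genes, in their RefSeq order, not to scale. Dark bars mark metalloproteinase genes with a signal of 100 on 1 or both arrays, pale bars those under 100 on both and grey bars flanking genes; Mmp13 (9.75), Mmp3 (6.39) and Mmp12 (2.50) stand above neighbours that lie between -0.67 and 1.02.

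Outside the chosen group, 12 further family genes had a probe set. By the Z-score as computed here, 0 of them met both criteria in either direction. Of the 12, 8 were under 100 on both arrays. Of the other 4, Mmp28, epilysin, an epithelial member expressed in intact skin, had signals of 47924 and 19920, a 2.41-fold lower value, and its other 2 probe sets had log2 differences of -0.90 and -1.22. Mmp16, a membrane-type enzyme, was at least 1.73-fold lower (173 and 47.0), Mmp23 was at least 2.50-fold lower (250 and 85.9), and Mmp15, another membrane-type enzyme, was at 867 and 1516 (log2 0.81). The median of the 12 was -0.080.

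Among the inhibitors the TIMP genes were within 2-fold. Timp1 had signals of 450 and 518, Timp3 609 and 732, and Timp4 115 and 87.1. Of the 6 inhibitor genes 0 were called higher and 1 was called lower, A2m, the plasma protease trap alpha-2-macroglobulin, at 283 and 45.1 (at least 2.83-fold lower). Reck, a membrane-anchored inhibitor, was 2.60-fold lower, at 319 and 123. The list had a median log2 difference of -0.26.

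Genes whose products activate the proenzymes included 2 called higher and 0 called lower of 12. Plaur, the receptor that holds urokinase at the cell surface, had signals of 347 and 1377 (3.97-fold higher), and the mast cell tryptase gene Tpsb2 had 83.0 and 393 (at least 3.93-fold higher). The urokinase gene Plau was 3.07-fold higher (275 and 844) and Furin, the convertase that processes Mmp11 and Mmp14, was 2.88-fold higher (1920 and 5534), both past the ratio and not the Z-score. Plg, the gene of plasminogen, which the liver supplies, was under 100 on both arrays. The median of the 12 genes was 0.26.

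The genes of the substrates were taken in 2 classes. Of 7 interstitial collagen chains 3 were called lower and 0 higher, Col1a1 (35375 and 381), Col1a2 (30589 and 282) and Col3a1 (15413 and 327), which are also fibroblast markers. The other 4 chains lay between -0.80 and -0.15 in log2 difference, among them Col5a2 at 517 and 365. Col2a1 and Col5a3 were under 100 on both arrays. Col1a1, Col1a2 and Col3a1 were recorded at a lower signal on the array where Mmp13 was high. These are RNA signals, collagen protein was not measured, and a link between them was not tested.

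Of 12 basement membrane genes with a probe set, 2 were called higher and 1 lower, with a median of 0.67. The laminin chains Lama5 (239 and 1598) and Lama3 (1520 and 7425) were 6.68-fold and 4.89-fold higher, and the linker protein gene Nid1 was 6.65-fold lower (6942 and 1045). The type IV collagen genes Col4a1 (88.0 and 160), Col4a2 (105 and 147) and Col4a5 (159 and 206) had log2 differences of 0.86, 0.48 and 0.38. The Control value of Col4a1 lay below the level under which the methods removed values, and its bound was 1.60-fold higher. Col4a3 (51.3 and 45.7) and Col4a4 (66.9 and 59.3) lay below that level on both arrays, each with a log2 difference of -0.17.

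Of 14 genes for factors known to induce metalloproteinases, 1 was called higher and 0 lower, with a median of 0.30. The one higher was the cytokine gene Il1a (35.3 and 3005, at least 30.1-fold). Among the AP-1 genes, Jun had signals of 243 and 638 (2.62-fold higher, not called), Fos 536 and 716, and Fosl2 956 and 584, and Fosl1 was under 100 on both arrays. Il1b and Tnf were under 100 on both arrays as well. Bsg, which encodes the metalloproteinase inducer basigin, was at 6890 and 8574.

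Basal keratinocyte markers were high on the same array as Mmp13 and Mmp3. Of 6 with a probe set 5 (Krt14, Krt16, Krt17, Dsg3 and Cd44) were called higher and 0 lower, and their summed signal was 17940 in Control and 191748 in DMA-tumor. Krt14, a keratin of basal cells, had signals of 2865 and 133451, and Cd44 had 2591 and 43383, together most of the DMA-tumor sum. Krt16, a keratin of wounded epidermis, had 39.9 and 236, and Dsg3 had 38.9 and 463. Both of these calls rest on a Control value under 100. The transcription factor gene Tp63 was at 12277 and 13519, the largest part of the Control sum. No probe set named Krt5 or Krt6a, also on the list, alone. The 7 urothelial markers all had lower signals on that array. The part of the makeup of the epithelium in the Mmp13 and Mmp3 values was not tested.

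**Figure D4:**
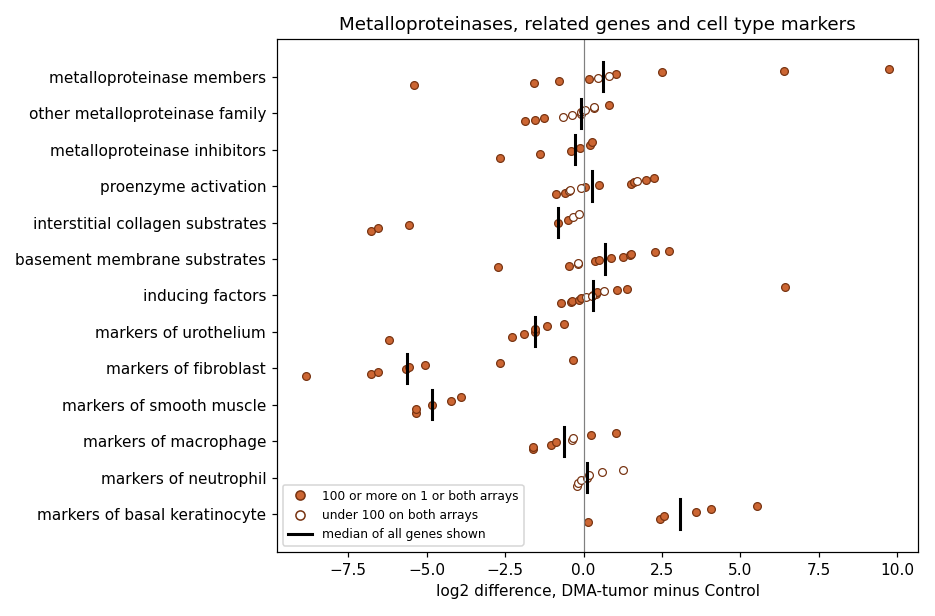
Log2 differences (horizontal axis, DMA-tumor minus Control) of the 10 metalloproteinase genes, related gene lists and cell type markers, 1 point per gene; filled points reached a signal of 100 on either array, open points were under 100 on both, and thick bars are medians over all genes shown. The metalloproteinases have the widest spread of the lists shown, from -5.42 to 9.75, while the fibroblast markers have a median of -5.61 and the basal keratinocyte markers one of 3.07.

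The differences of the 4 called genes changed little with other processing. Over centring, quantile normalization, a loess trend, averaged probe sets and a floor of 100, Mmp13 lay between 9.24 and 9.75, Mmp3 between 6.08 and 6.39, Mmp12 between 2.24 and 2.50, and Mmp2 between -5.60 and -4.99. Averaging could not move these 4, each with a single probe set, and the floor could not move Mmp3 or Mmp12. Mmp7 (0.073 to 1.02) and Mmp11 (-1.80 to -0.97) moved more, and both had a signal under 100 on 1 array.

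**Figure D5:**
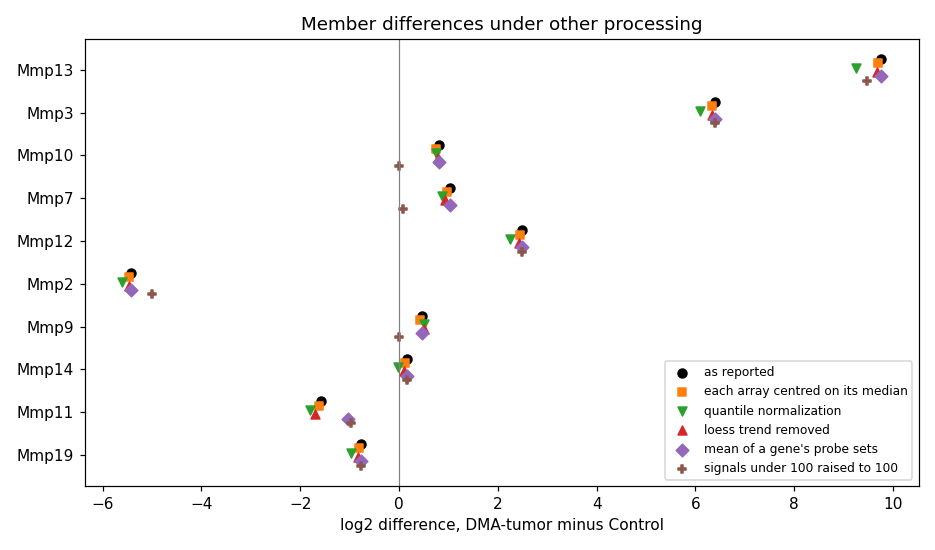
Log2 difference (horizontal axis, DMA-tumor minus Control) of each of the 10 metalloproteinase genes as reported and under 5 other ways of processing the same 2 arrays, 1 symbol per way. The symbols of Mmp13, Mmp3, Mmp12 and Mmp2 stay together far from 0, while those of Mmp7, Mmp9 and Mmp10 reach 0.073 or 0 once signals under 100 are raised to 100.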

How the data were processed

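Per the labels, total RNA was isolated with TRIzol and amplified and biotin-labelled with a whole-transcript kit. The processing notes of the submitters name RMA and Affymetrix Expression Console 1.4.1, while the methods name a 3′ array and global median normalization. The deposited probe sets carry transcript cluster names, which belong to whole-transcript arrays and not to that 3′ array. Which normalization was applied is not settled. The deposited table gives linear intensity per probe set, between 5.60 and 820532, and log2 of each value was used without further normalization. Array medians were 50.6 and 52.3. Names came from the annotation of the platform (23446 probe sets with 1 symbol, 505 with several, 44891 with none listed). The probe set with the highest mean log2 signal stood for a gene, which applied to Mmp11 among the chosen genes, and all 10 Entrez IDs matched the RefSeq symbol. Precision is limited by the number of arrays, and no test was run. The genes and lists were chosen with earlier results of these data known. All 10 genes were named, and of each list the called genes and a number of others, some picked after their values were seen. Scripts ran under Python 3.11.15 with pandas 2.3.3 and numpy 2.4.6, loess fits used statsmodels 0.14.6, and plots matplotlib 3.10.9.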

Additional observations from a re-analysis of the deposited data

How the results depend on the processing

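With 1 array per group, no array could be left out, and no paired analysis was possible because each group had a single array. Mmp13, Mmp3 and Mmp12 were called higher and Mmp2 lower without a filter on signal, with a minimum of 32, after centring, quantile normalization or removal of a loess trend (span 0.3), with averaged probe sets and with signals under 100 raised to 100. A signal of 100 on both arrays, which removes Mmp13 and Mmp2 by construction, left 2 called higher and 0 called lower, with a median of 1.33 over the 4 genes left. The median over the 10 genes was 0.037 with signals raised to 100, and 0.59 over the 8 genes with a signal of 100 on 1 or both arrays, a setting added after the data were seen. By a ratio of 2 alone 2 genes were lower, and by a ratio of 1.5 alone 3 were, with Mmp19 added. Over all genes, 305 higher and 286 lower calls became 569 and 497 without a filter, 481 and 429 with a minimum of 32, 1071 and 1271 by the ratio of 2 alone, and 2017 and 2597 by the ratio of 1.5 alone. Of 50 recomputed differences of the 10 genes, 47 stayed within 1.5-fold, 3 moved further (Mmp7, Mmp10 and Mmp11 with signals raised to 100), and 1 changed sign, that of Mmp14, a gene not called. Part of the 47 could not move, since averaging could change only Mmp11 and the floor only genes with a signal under 100. Signals near 100 limit what can be said of Mmp7, Mmp9, Mmp10 and Mmp11.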
